A study of Rattus norvegicus with 75 samples.

Results

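The renin-angiotensin system was followed in microdissected rat kidney tubules through 6 of the 32754 genes of the deposited table, chosen by name: Agt, Ace, Enpep, Agtr1a, Agtr1b and Atp6ap2. Each had 1 row, and all 6 were read in every one of the 75 RNA sequencing libraries. In this system renin cuts angiotensinogen to angiotensin I, angiotensin-converting enzyme makes angiotensin II from it, and angiotensin II acts through type 1 receptors. Peptidases such as aminopeptidase A then trim angiotensin II further. In the kidney the system raises sodium uptake along the tubule, and a receptor that binds prorenin is best known in the collecting duct, where it is also an accessory part of the vacuolar proton pump.

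Male Sprague-Dawley rats weighing 120 to 160 g ate plain food (control) or food to which 40 mM lithium chloride per kg had been added. Cortical collecting duct (CCD), the segment of principal and intercalated cells, was dissected after 12 h (3 control and 2 lithium libraries), 24 h (3 and 3), 36 h (3 and 3) and 72 h (17 and 19). Cortical thick ascending limb (cTAL), the salt-absorbing segment upstream of it, was dissected after 72 h (12 and 10). Lithium in food is a model of the diabetes insipidus that lithium causes in patients, and the series asks which signals begin it in the collecting duct.

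Values are TPM, the number of transcripts of a gene per 1e+06 transcripts of the library, which are scaled by transcript length and can therefore be compared between genes. The sequencing depth is unknown, and between 10888 and 12411 genes had at least 1 TPM in a library. The segment labels matched their markers: the water channel Aqp2 averaged 4908 TPM in control CCD and 4.97 TPM in control cTAL at 72 h, and uromodulin (Umod), the marker of the thick limb, had a median of 65.0 TPM (25.1 to 142) and 67820 TPM (45250 to 79240). Which libraries are separate rats is not in the labels, and every p-value here is set against a spread of libraries that may be partly technical. Libraries with consecutive replicate numbers shared on or off states of Pfdn6, Slc39a1, H3f3c and Mrps10, and such sets may share an animal. Each group at 72 h held 4 sets, with the same 4 patterns per treatment in CCD and cTAL, and each group at 12, 24 and 36 h was a single set. At those times treatment and set cannot be told apart.

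The 250 bases before the annotated start are shown for Agtr1a and Atp6ap2, the members called between lithium and control, and for Agtr1b, the second rodent copy of the type 1 receptor, which was close to 0 in the same libraries. The sequences are RefSeq's on GRCr8, another build than that of the TPM values, and lie at chr17:34435433-34435682, chrX:12883671-12883920 and chr2:104849263-104849512, all on the minus strand and written 5′ to 3′. Capitals mark matches to 5 motifs searched on both strands. The motifs were the TATA box as TATAAA, the CCAAT box by that name's letters, the GC box as GGGCGG, the AP-1 site as TGANTCA and the half-site of the cAMP response element as TGACG.
Agtr1a: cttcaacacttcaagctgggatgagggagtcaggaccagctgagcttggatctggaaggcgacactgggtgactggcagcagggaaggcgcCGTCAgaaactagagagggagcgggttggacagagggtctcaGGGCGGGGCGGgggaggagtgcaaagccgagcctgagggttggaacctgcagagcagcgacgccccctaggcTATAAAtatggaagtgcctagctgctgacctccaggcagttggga
Agtr1b: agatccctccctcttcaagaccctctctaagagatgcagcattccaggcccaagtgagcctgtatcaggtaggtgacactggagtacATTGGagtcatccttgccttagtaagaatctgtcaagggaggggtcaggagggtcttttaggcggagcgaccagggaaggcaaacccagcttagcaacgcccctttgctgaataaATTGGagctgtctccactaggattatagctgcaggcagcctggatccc
Atp6ap2: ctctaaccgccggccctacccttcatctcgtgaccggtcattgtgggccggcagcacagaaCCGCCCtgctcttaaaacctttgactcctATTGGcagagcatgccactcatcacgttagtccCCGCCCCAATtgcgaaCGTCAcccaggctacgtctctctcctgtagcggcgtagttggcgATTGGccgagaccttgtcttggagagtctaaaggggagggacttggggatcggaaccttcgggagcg
Agtr1a had a TATA box match 45 bases before the start, a pair of GC box matches that overlap by a base, and a match to the cAMP half-site. Agtr1b had no match to these 3 motifs and 2 matches to the CCAAT box. Atp6ap2 had 3 matches to the CCAAT box, 2 to the GC box and 1 to the cAMP half-site, and none to the TATA box. One GC box match there shares a base with a CCAAT box match. No AP-1 match was in these 3 windows. Of 33469 promoters of the same length, 12.9% held a TATA box match, 34% a CCAAT box, 30.5% a GC box, 18.2% a cAMP half-site and 6.34% an AP-1 site. CG dinucleotides numbered 9 in Agtr1a, 3 in Agtr1b and 18 in Atp6ap2, against a median of 5 over all promoters. Such matches describe the sequence only. Of the 6 members, 5 matched an entry of the promoter table by symbol.

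The substrate and the converting enzyme were scarce in both segments. Agt, which encodes angiotensinogen (ENSRNOG00000018445), had a mean below 1 TPM in 9 of the 10 groups and 1.16 ± 1.84 TPM (SD, n = 10) in lithium cTAL. Ace, which encodes angiotensin-converting enzyme (ENSRNOG00000062101), had its highest mean in the same group, 0.787 ± 0.88 TPM (n = 10), followed by 0.675 ± 0.579 TPM (n = 12) in control cTAL. In the order of the 10 group means, the ranges of 1 SD around neighbouring means overlapped throughout for both genes.

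Agt was highest in CCD in the 24 h controls. Their libraries had 0.21, 1.73 and 0.93 TPM, against 0, 0.12 and 0.08 TPM in the lithium libraries. All 3 lithium libraries lay below all 3 controls. Too few libraries reached 1 TPM for Agt to be tested with the filter on low values. Without that filter limma gave a log2 difference of -0.80 with a Benjamini-Hochberg (BH) adjusted p of 0.049. The summed TPM of 18 proximal tubule markers moved with it, at 920 to 2732 TPM in the 24 h controls and 250.7 to 390.8 TPM in the lithium libraries, and 6 of 16 tested markers of that list fell. The proximal tubule is the main site of angiotensinogen synthesis in the kidney. The part of such cells in this result was not tested. In bulk samples fewer cells of a type and less RNA per cell cannot be told apart.

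At 72 h Agt ranged from 0 to 3.8 TPM in control CCD with a median of 0.1, and from 0 to 1.37 TPM in lithium CCD with a median of 0.09. Control CCD library 10 held the highest value, and it also held the highest summed endothelial markers of its group (259 TPM, median 61.5) and the second highest proximal tubule markers (536 TPM, median 149). Its sums were also the highest for principal cells (18855.5 TPM), thick limb (1409 TPM), podocytes (6.09 TPM) and immune cells (633 TPM). Those of the remaining lists were not the highest. The part of any cell type was not tested. The log2 difference was -0.00 (SE 0.15, permutation p = 0.965, two-sided). In cTAL the values were 0 to 0.95 TPM in control and 0 to 5.82 TPM in lithium libraries, with medians of 0.16 and 0.355. The log2 difference of 0.50 (SE 0.31) did not pass a permutation test (p = 0.105). The permutation tests of the 6 members in both segments at 72 h are 12 in number, and their p-values are unadjusted.

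Ace gave values of 0 to 0.55 TPM in control and 0 to 0.69 TPM in lithium CCD libraries at 72 h, with a log2 difference of 0.01 (SE 0.08, permutation p = 0.853). In cTAL it ranged from 0 to 1.53 TPM and from 0 to 2.75 TPM, with 0.04 (SE 0.26, permutation p = 0.862). At 24 h the lithium libraries had 0.68, 0.18 and 0.26 TPM and the controls 0.01, 0.23 and 0. At 36 h they had 0.11, 0.25 and 0.32 TPM against 0, 0 and 0.19. The groups overlapped at both times. Ace was listed at 0 in both lithium libraries at 12 h and at 0, 0.07 and 0.59 TPM in the controls.

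**Figure D1:**
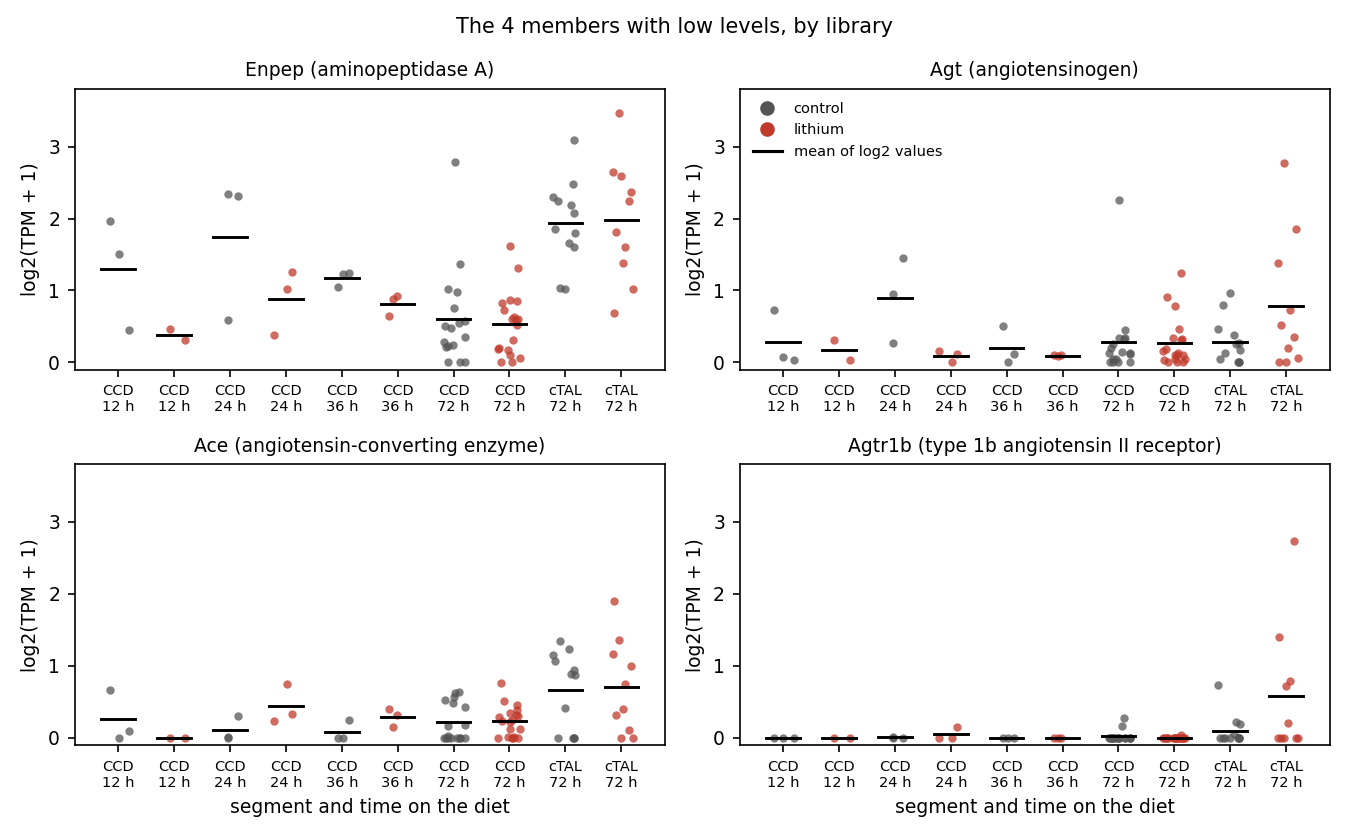
The y axes give log2(TPM + 1) of Enpep, Agt, Ace and Agtr1b, and each point is 1 library in its group on the x axis (grey without lithium, red with it), with a black bar at the mean of the log2 values. Values are near 0 in most CCD libraries, and single lithium cTAL libraries stand highest, with Enpep at 10.02, Agt at 5.82 and Agtr1b at 5.64 TPM.

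Enpep encodes aminopeptidase A, which takes the first residue from angiotensin II (ENSRNOG00000051854). It was higher in cTAL than in CCD. Control cTAL libraries had 1.02 to 7.51 TPM with a median of 2.91, and control CCD libraries at 72 h had 0 to 5.9 TPM with a median of 0.39. The groups overlapped, and the log2 difference of CCD minus cTAL was -1.34 (SE 0.23, limma adjusted p = 8.41e-07). Proximal tubule markers were also lower in control CCD, with 10 of 13 tested members called and summed levels of 80.7 to 701 TPM against 787 to 1565 TPM. Per 100 TPM of those markers the median of Enpep was 0.211 TPM in control CCD (0 to 1.1) and 0.276 TPM in control cTAL (0.129 to 0.802). All 9 tested endothelial markers were lower in control CCD too (median log2 difference -2.14). Over the 17 control CCD libraries at 72 h the correlation of Enpep was 0.535 with the proximal tubule sum, 0.715 with the endothelial sum and 0.537 with the podocyte sum. Over all 26 control CCD libraries these were 0.695, 0.682 and 0.647. Sums of the other lists gave at most 0.472 (thick limb) over the 17 and 0.46 (distal convoluted and connecting tubule) over the 26. The part of any cell type was not tested.

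Lithium did not move Enpep past the test in any comparison. At 12 h the controls had 1.83, 0.36 and 2.9 TPM and the lithium libraries 0.24 and 0.38 TPM, which overlap. The log2 difference was -0.92 (SE 0.47, limma adjusted p = 0.241). At 24 h the controls had 0.5, 3.99 and 4.06 TPM and the lithium libraries 1.02, 0.3 and 1.4 TPM, with -0.86 (SE 0.42, adjusted p = 0.146). Without control library 1 of 24 h, which had the low value of 0.5, the difference was -1.44 and passed (adjusted p = 0.00777). At 36 h all 3 lithium libraries (0.84, 0.89 and 0.56 TPM) lay below all 3 controls (1.34, 1.07 and 1.37 TPM), with -0.36 (SE 0.41, adjusted p = 0.533). In cTAL lithium libraries had 0.61 to 10.02 TPM with a median of 3.12, and the log2 difference was 0.04 (SE 0.29, adjusted p = 0.974). At 72 h in CCD Enpep did not enter the limma fit, and its log2 difference was -0.07 (SE 0.19, permutation p = 0.727). Among control CCD libraries it differed between the 4 times (moderated F = 4.65, limma adjusted p = 0.0427), with means of 1.70, 2.85, 1.26 and 0.76 TPM at 12, 24, 36 and 72 h. That call was lost with an offset of 0.1 (adjusted p = 0.082), without the filter (0.0719) and on means of sets (0.382).

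Agtr1a, the main type 1 angiotensin II receptor of rodents (ENSRNOG00000018346), had its highest level in cTAL and was low in CCD. Control cTAL libraries had 18.8 to 76.3 TPM with a median of 46.8, and lithium cTAL libraries 43.0 to 61.1 TPM with a median of 51.4. Control CCD libraries at 72 h had 0.09 to 10.28 TPM with a median of 1.34, so the segments did not overlap. The log2 difference of control CCD minus control cTAL was -4.07 (SE 0.23, limma adjusted p = 2.79e-24). All 3 tested members passed in this comparison, where 68.4% of all genes tested did, Agtr1a and Enpep as lower in CCD (18.6% of genes) and Atp6ap2 as higher (49.8%). Agtr1a and Enpep entered this fit through the 12 control cTAL libraries, as 10 and 3 of 17 control CCD libraries reached 1 TPM. Such entry favours lower values in CCD. Cells of small vessels and the mesangium also carry this receptor. Vessel markers differed too, and all 9 tested endothelial markers were lower in control CCD (median log2 difference -2.14). Per 100 TPM of those markers Agtr1a had a median of 9.71 TPM in control cTAL (6.95 to 34.5) and 1.92 TPM in control CCD (0.287 to 21.0).

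In CCD Agtr1a fell under lithium at 36 h. The control libraries had 9.36, 15.4 and 6.8 TPM and the lithium libraries 0.91, 0.88 and 0.36 TPM. The groups did not overlap, and the control mean was 14.7 times the lithium mean. The log2 difference was -2.70 (SE 0.35, limma adjusted p = 1.46e-05). It passed in 12 of 12 alternatives, with adjusted p-values of 7.67e-06 to 0.00719; among them is the fit on means of sets, in which each 36 h group is 1 value and is assumed to vary like the sets of 72 h. At that time 2 of 3 tested members fell, where 34.8% of all genes passed in either direction, 25.5% as higher and 9.28% as lower. Agtr1a and Enpep entered this fit through the controls, as 3 controls and 0 lithium libraries reached 1 TPM for each. Such entry favours lower values under lithium, so the count cannot be weighed against those shares.

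The 36 h controls had the highest CCD level of Agtr1a. Their mean of 10.52 ± 4.42 TPM (SD, n = 3) stood above the other control CCD means of 1.74 ± 0.286 (n = 3) at 12 h, 1.71 ± 0.855 (n = 3) at 24 h and 2.59 ± 2.8 TPM (n = 17) at 72 h. Agtr1a differed between the control times (moderated F = 8.51, limma adjusted p = 0.00261), among 15.4% of all genes, and lost that call with an offset of 0.1 (adjusted p = 0.0515) and on means of sets (0.209). Summed endothelial markers were 146, 248 and 265 TPM in the 36 h controls and 62.8 to 111 TPM in the lithium libraries, and 2 of 8 tested fell. Summed markers of smooth muscle, pericytes and mesangium were 36.2 to 40.8 TPM against 25.6 to 31.3 TPM, with 0 of 4 tested lower and 1 higher. Per 100 TPM of endothelial markers, Agtr1a was 3.53 to 6.22 TPM in the controls and 0.573 to 0.83 TPM in the lithium libraries, again without overlap. Markers of the tubule moved with Agtr1a as well. Summed thick limb markers were 1497 to 1983 TPM in the 36 h controls and 705 to 776 TPM in the lithium libraries (2 of 4 tested fell, median log2 difference -0.77), and Kcnj1 of that list is also made by principal cells. Umod and Slc12a1 were a small part of these sums. Umod averaged 61.2 TPM in the 36 h controls and 28.5 TPM in the lithium libraries, and Slc12a1 4.49 and 1.32 TPM. In control cTAL they averaged 64658.5 and 3140.6 TPM. Summed principal cell markers were 18244 to 22270 TPM against 10042 to 10931 TPM (8 of 10 fell and 1 rose, median -0.97). The part of vascular, thick limb or principal cells in the result was not tested.

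At 72 h Agtr1a was also lower in lithium CCD. Values ranged from 0.09 to 10.28 TPM with a median of 1.34 in 17 control libraries, and from 0.02 to 0.84 TPM with a median of 0.24 in 19 lithium libraries. In control, 10 libraries reached 1 TPM and in lithium 0 did. Of the controls, 12 lay above every lithium library, and 5 lithium libraries lay below every control. The ranges overlapped through controls 1, 2, 3, 8 and 17. The ratio of means was 8.32.

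Agtr1a did not enter the limma fit at 72 h, because the filter asked for 17 libraries with 1 TPM. A permutation test over libraries gave a log2 difference of -1.13 (SE 0.25) with a two-sided p of 2e-05, the smallest that 100000 resamples can give. Without the filter, limma gave the same difference with an adjusted p of 0.000299. The 4 means of control sets were 0.783, 2.11, 3.48 and 3.70 TPM and those of lithium sets 0.193, 0.456, 0.208 and 0.41 TPM. They did not overlap (exact permutation p = 0.0286, two-sided, the smallest that 4 against 4 allows).

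Endothelial markers fell at 72 h as well, with 8 of 8 tested members lower, a median log2 difference of -0.86 and summed levels of 24.5 to 259 TPM in control and 11.6 to 93.6 TPM in lithium CCD. Per 100 TPM of them Agtr1a had a median of 1.92 TPM in control (0.287 to 21.0) and 0.644 TPM in lithium libraries (0.029 to 5.33), and these ranges overlap. Over the 17 control libraries the correlation of Agtr1a was 0.386 with the endothelial sum, 0.508 with that of thick limb markers, 0.464 with those of intercalated cells and of podocytes, and 0.41 with that of principal cells. Over the 26 control CCD libraries of all times the correlation was 0.556 with the endothelial sum and 0.543 with that of thick limb markers. It was 0.499 for principal cells, 0.495 for podocytes and 0.195 for intercalated cells. These values describe libraries that may share animals. Summed thick limb markers had medians of 976 TPM in control (620 to 1409) and 743 TPM in lithium CCD (485 to 1502), while of 6 tested 1 rose and 1 fell, with a median log2 difference of 0.32. Umod of that list had medians of 65.0 and 60.3 TPM. Per 100 TPM of Umod, the median of Agtr1a was 0.0827 TPM in control cTAL, 2.15 TPM in control CCD and 0.320 TPM in lithium CCD.

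**Figure D2:**
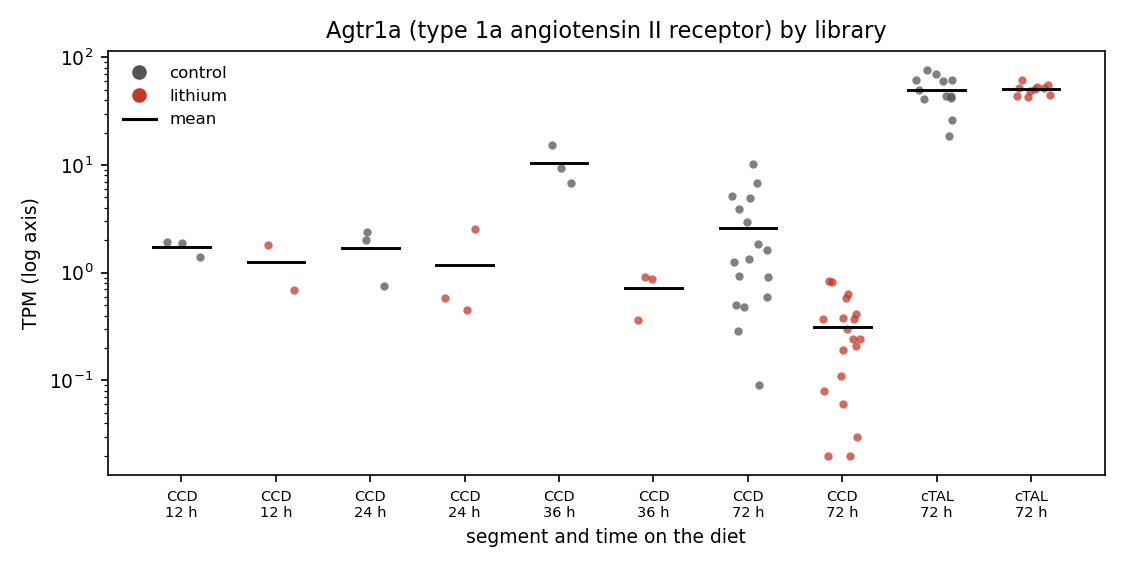
The log-scaled y axis gives Agtr1a in TPM, and each point is 1 library in its group on the x axis (grey without lithium, red with it), with a black bar at the mean TPM. The 36 h control libraries lie at 6.8 to 15.4 TPM and the 36 h lithium libraries at 0.36 to 0.91 TPM, while both cTAL groups average near 50 TPM (49.5 and 50.4).

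At 12 and 24 h no difference of Agtr1a passed. The 12 h controls had 1.9, 1.41 and 1.91 TPM and the lithium libraries 0.69 and 1.82 TPM, with a log2 difference of -0.32 (SE 0.40, limma adjusted p = 0.683). The 24 h controls had 2.38, 0.75 and 2.01 TPM and the lithium libraries 0.45, 0.58 and 2.53 TPM, with -0.38 (SE 0.35, adjusted p = 0.475). Both pairs of groups overlapped. A test of whether the lithium effect differed among the 4 times missed the threshold (moderated F = 4.31, limma adjusted p = 0.0847), and 0 of 4 tested members passed it, against 8.43% of all genes. At an unadjusted p, 2 of the 4 were under 0.05.

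In cTAL, where Agtr1a was abundant, lithium left a log2 difference of 0.11 (SE 0.17, limma adjusted p = 0.832), with means of 49.5 ± 17.1 (n = 12) and 50.4 ± 5.64 TPM (n = 10). All lithium libraries lay within the control range. Of the 3 members tested there, 0 passed limma and 0 had an unadjusted p under 0.05, and 0.701% of all genes passed, 0.111% as higher and 0.59% as lower. The difference between the lithium effects in CCD and cTAL at 72 h was tested directly and was -1.24 for Agtr1a (SE 0.33, limma adjusted p = 0.00488). In that test 2 of 3 members were called, both as lower in CCD, against 15.3% of genes in either direction, 11.8% higher and 3.44% lower. On means of sets the difference was -1.42 and was not called (adjusted p = 0.102).

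Agtr1b, the other type 1 receptor gene of rodents (ENSRNOG00000010640), was listed at 0 in 48 of 53 CCD libraries and never exceeded 0.21 TPM in this segment. In control cTAL 8 of 12 libraries were at 0 and the highest had 0.66 TPM. In lithium cTAL 5 of 10 were at 0, and the others had 1.64, 0.73, 5.64, 0.65 and 0.15 TPM. The log2 difference of 0.49 (SE 0.29) did not pass a permutation test (p = 0.0799). The highest value was in library 4. Agtr1a in that library, 51.45 TPM, was within the range of its group. Reads of these near-identical genes are divided by estimation, so a small Agtr1b level beside a high Agtr1a level is uncertain. Agtr2, the type 2 receptor, was at 0 in 74 of 75 libraries.

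Atp6ap2, which encodes the prorenin receptor and accessory subunit of the vacuolar proton pump (ENSRNOG00000003858), was the most abundant member in every group. Control cTAL libraries had 166 to 329 TPM with a median of 213, and control CCD libraries at 72 h had 843 to 1332 TPM with a median of 1114. The segments did not overlap, and the log2 difference of CCD minus cTAL was 2.37 (SE 0.07, limma adjusted p = 1.05e-39). Intercalated cells carry this pump at high density, and all 10 intercalated cell markers were higher in control CCD. All 10 principal cell markers and all 4 tested markers of distal convoluted and connecting tubule were higher too. Thick limb (7 of 7), endothelial (9 of 9), immune (12 of 12) and proximal tubule markers (10 of 13) were lower. The part of any cell type in this difference was not tested.

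Atp6ap2 fell under lithium in CCD at 72 h. The 19 lithium libraries had 649 to 952 TPM with a median of 771. Of them 15 lay below every control, and 16 of 17 controls lay above every lithium library; control library 3, at 843 TPM, was the one that overlapped. The mean was 1120 ± 107 TPM (SD, n = 17) in control and 781 ± 92.2 TPM (n = 19) in lithium libraries, a ratio of 1.43. The log2 difference of -0.52 (SE 0.05) had a limma adjusted p of 1.39e-10, and it passed in 15 of 15 alternatives, the means of sets among them (adjusted p at most 0.000738). Atp6ap2 was the only member that entered this fit, in which 37.3% of genes passed in either direction, 22% as higher and 15.2% as lower. The means of the 4 control sets, 1083 to 1194 TPM, did not overlap with those of the 4 lithium sets, 728 to 841 TPM (exact permutation p = 0.0286, two-sided, the smallest possible).

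**Figure D3:**
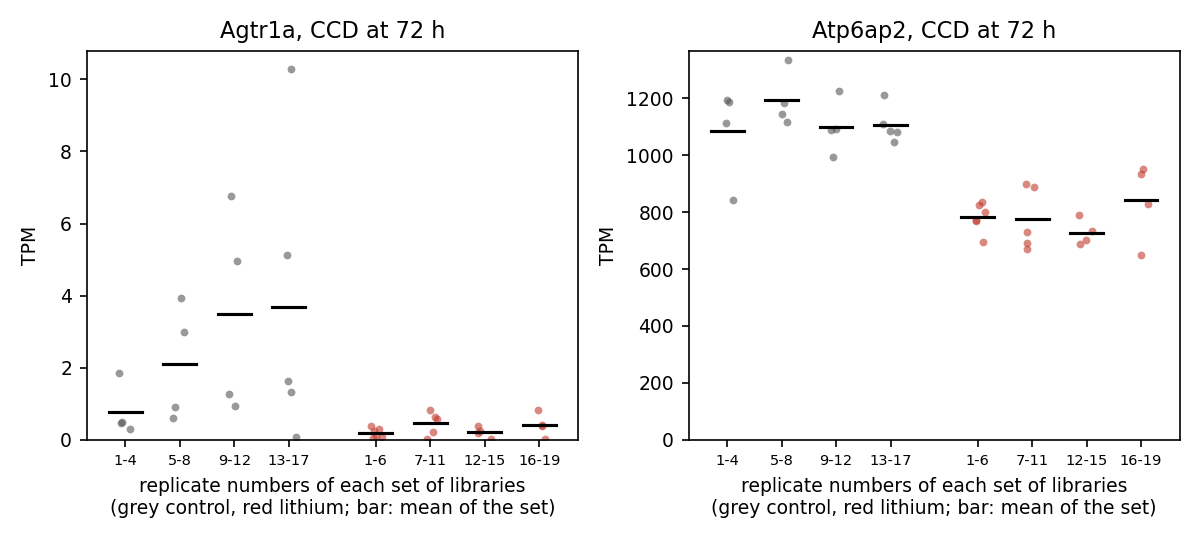
Agtr1a and Atp6ap2 in TPM in CCD at 72 h, with libraries grouped by set along the x axis (replicate numbers), control in grey and lithium in red, and a black bar at the mean of each set. For both genes every control set mean lies above every lithium set mean, although single Agtr1a libraries overlap.

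Atp6ap2 also fell at 24 and 36 h. At 36 h the lithium libraries had 747, 761 and 698 TPM and the controls 908, 832 and 1091 TPM. They did not overlap, and the log2 difference was -0.35 (SE 0.09, limma adjusted p = 0.00635). On means of sets it was not called (adjusted p = 0.209). At 24 h the lithium libraries had 845 to 873 TPM and the controls 1041 to 1052 TPM, again apart, with -0.29 (SE 0.09, limma adjusted p = 0.0259). In this comparison 1 of 3 tested members was called, against 25.7% of genes in either direction, 19.9% higher and 5.77% lower. The 24 h call was lost whenever any of the 6 libraries was left out (adjusted p 0.0507 to 0.0681), without the filter (0.0516) and on means of sets (0.41). At 12 h the lithium libraries had 776 and 961 TPM and the controls 921 to 1010 TPM, which overlap, with -0.16 (SE 0.10, adjusted p = 0.353). At 12 h, 0 of 3 tested members passed limma and 0 had an unadjusted p under 0.05, against 11.7% of genes called, 7.96% higher and 3.78% lower. The lithium effects were not shown to differ among the times (moderated F = 3.01, adjusted p = 0.221).

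In cTAL Atp6ap2 had 219 ± 43.7 TPM (n = 12) in control and 225 ± 16.7 TPM (n = 10) in lithium libraries, with a log2 difference of 0.05 (SE 0.09, limma adjusted p = 0.835). The direct test of CCD against cTAL gave -0.58 (SE 0.10, limma adjusted p = 5.38e-06), and -0.46 on means of sets, which was not called (adjusted p = 0.235). In CCD markers of intercalated and of principal cells were also called as lower, those of principal cells mainly at 36 and 72 h. All 10 intercalated markers fell at 72 h (median log2 difference -0.53), 4 of 10 at 36 h, 4 of 10 at 24 h and 1 of 10 at 12 h. Their summed level was 9020 to 13732 TPM in control and 7731 to 10111 TPM in lithium CCD at 72 h. Of 10 principal cell markers 8 fell and 1 rose at 72 h (median -0.35), and 8 fell and 1 rose at 36 h (median -0.97). At 24 h 3 fell and 1 rose (median -0.01), and at 12 h 3 fell and 2 rose (median -0.14). Over the 53 CCD libraries the correlation with Atp6ap2 was 0.805 for the intercalated sum and 0.493 for the principal cell sum. Over the 17 controls of 72 h it was 0.507 and 0.0535, and over all 26 control CCD libraries 0.382 and -0.436, as a description. The part of either cell type in the fall was not tested. Atp6ap1, the other accessory subunit of the pump, had 841 ± 143 TPM (n = 17) and 745 ± 116 TPM (n = 19) at 72 h, did not pass there, and fell at 24 h (log2 difference -0.29, adjusted p = 0.0311).

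**Figure D4:**
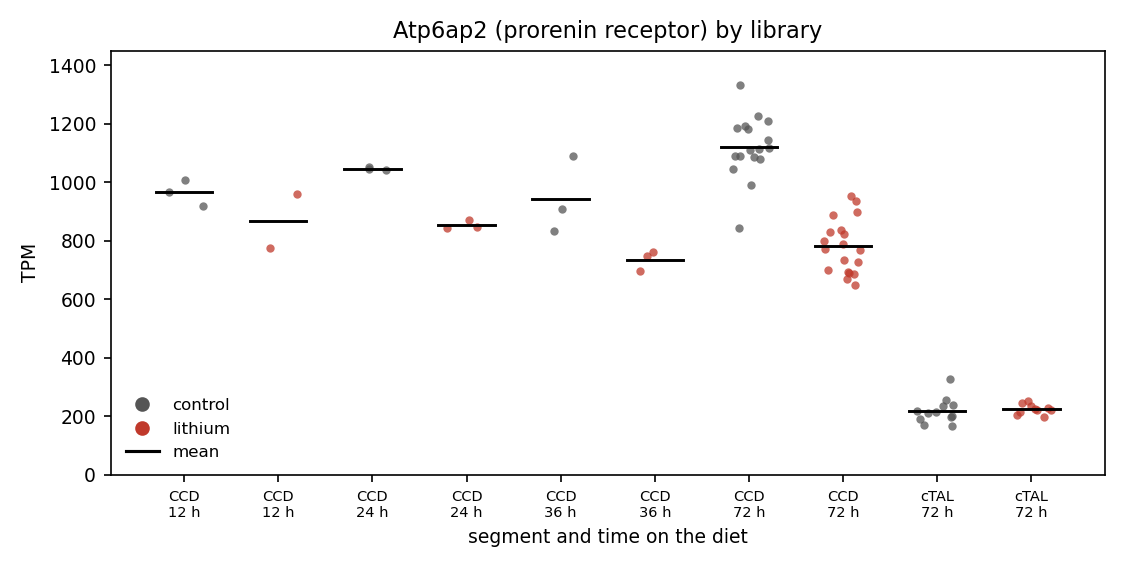
The y axis, linear from 0, gives Atp6ap2 in TPM, and each point is 1 library in its group on the x axis (grey without lithium, red with it), with a black bar at the mean TPM. Lithium CCD libraries lie below all controls at 24 and 36 h, and at 72 h 15 of 19 lie below every control, where the means are 781 and 1120 TPM.

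The wider renin-angiotensin list held 27 genes, 26 of them with a row, the 6 members included. In CCD at 72 h 13 were tested, 2 rose and 3 fell, with a median log2 difference of 0.04 against -0.00 over all genes. These 5 calls stand beside 37.3% of all genes called. At 36 h 3 of 15 rose and 3 fell (median -0.02 against 0.13), beside 34.8% of all genes. At 24 h 1 of 15 rose and 3 fell (-0.14 against 0.13), beside 25.7%, and at 12 h 0 rose and 1 fell (-0.14 against 0.06), beside 11.7%. Counted in either direction, the list was thus called about as often as all genes. By direction, 22% of all genes rose and 15.2% fell at 72 h, and 25.5% and 9.28% at 36 h. At 24 h these shares were 19.9% and 5.77%, and at 12 h 7.96% and 3.78%. The split of so few list genes was not tested, and they are described singly. In cTAL 0 of 14 passed limma, with 0 at an unadjusted p under 0.05 (median -0.01 against -0.08).

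The genes that rose encode peptidases that act on small peptides inside cells. Prep, which encodes prolyl oligopeptidase, an enzyme that can release angiotensin-(1-7), rose at 24, 36 and 72 h. Its mean went from 24.2 ± 4.02 (n = 17) to 38.6 ± 9.33 TPM (n = 19) at 72 h, a log2 difference of 0.63 (SE 0.10, limma adjusted p = 2.21e-06), and it stayed called on means of sets (adjusted p = 0.0142). Of 19 lithium libraries 15 lay above every control. At 36 h all 3 lithium libraries lay above all 3 controls, with 0.71 (SE 0.13, adjusted p = 0.000534), and at 24 h likewise, with 0.56 (adjusted p = 0.00476). In cTAL it had 25.0 and 27.1 TPM, and the direct test of its lithium effects in CCD against cTAL gave 0.56 (adjusted p = 0.0277). Thop1, which encodes thimet oligopeptidase, rose by 0.33 at 72 h (adjusted p = 0.00472) and by 0.67 at 36 h (0.00228). Nln, which encodes neurolysin, rose by 0.38 at 36 h (0.026), a call lost when libraries were scaled by median ratios (0.201).

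The other genes that fell encode aminopeptidases and neprilysin. Anpep, which encodes aminopeptidase N and is abundant in proximal tubule, had 32.4 to 47.6 TPM in control and 12.1 and 26.2 TPM in lithium CCD at 12 h (log2 difference -1.16, limma adjusted p = 0.0122). At 24 h it had 40.5 to 75.6 and 22.4 to 29.8 TPM (-1.08, adjusted p = 0.00434). It was not called at 36 h (-0.40, adjusted p = 0.237) or 72 h (0.17, 0.505). Anpep also differed between the control times (moderated F = 15.7, limma adjusted p = 3.06e-05). Control means were 41.6, 58.1, 20.3 and 16.3 TPM at 12, 24, 36 and 72 h, and lithium means 19.1, 26.3, 14.95 and 16.6 TPM. The 2 calls of Anpep thus lay at the times with the highest control means. Proximal tubule markers were lower with it at 24 h, as given for Agt, while at 12 h 0 of 13 tested were called (median log2 difference -0.84). Between the control segments at 72 h Anpep was higher in CCD (log2 difference 2.69, limma adjusted p = 4.74e-11). There 10 of 13 tested proximal tubule markers were lower. The part of proximal tubule cells in the fall of Anpep was not tested. Mme, which encodes neprilysin, fell at 72 h by a log2 of -0.46 (adjusted p = 0.0201), from 82.4 ± 33.2 to 57.3 ± 14.3 TPM. Rnpep, which encodes aminopeptidase B, fell by 0.20 on the log2 scale at 72 h (adjusted p = 0.0387) and by 0.34 at 36 h (0.0131). Of these other list genes, in the 4 CCD lithium comparisons, Prep at 72 h was the one call that remained on means of sets. Lnpep was listed at 0 in all 75 libraries.

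**Figure D5:**
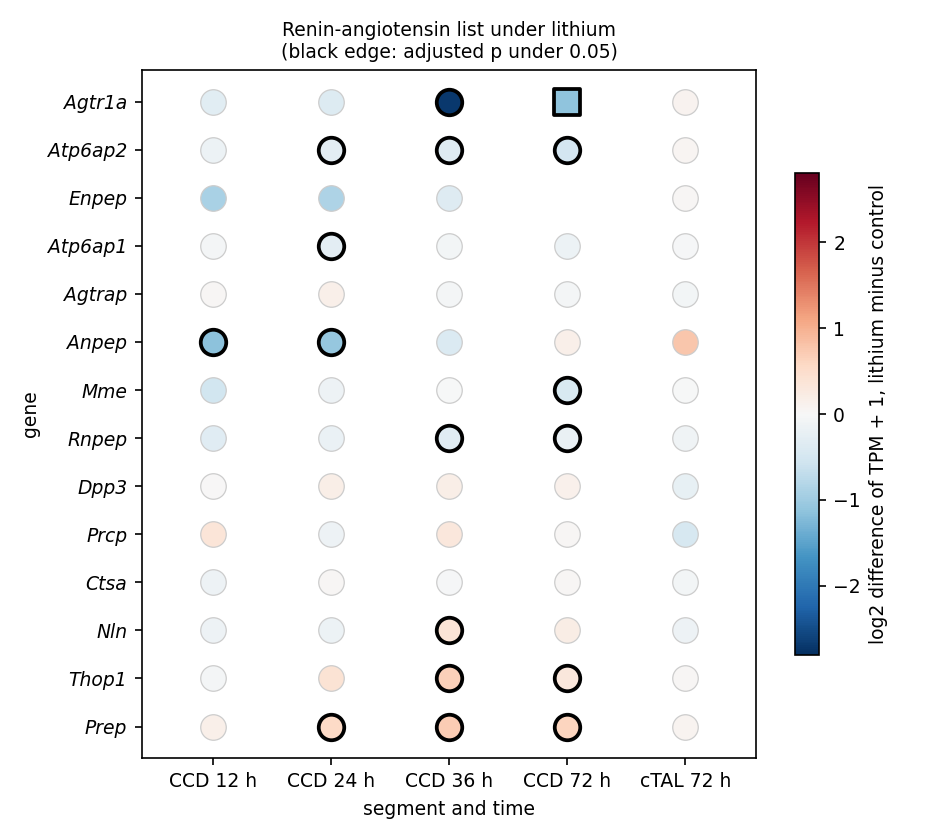
Log2 difference of lithium minus control for tested genes of the renin-angiotensin list (rows) in the 5 lithium comparisons (columns), blue for lower and red for higher, with a black edge where the adjusted p was under 0.05. The square is Agtr1a in CCD at 72 h from the fit without a filter (-1.13), and empty places were not tested.

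Over the 53 CCD libraries, the genes whose log2(TPM + 1) was most like that of Agtr1a were Mturn (r = 0.81), Cd24 (0.81) and Lpl (0.80). Over the 10 group means, cTAL included, r was 0.97 for Mturn, -0.33 for Cd24 and -0.78 for Lpl. For Atp6ap2 they were Lmbrd1 (0.93 over libraries, 1.00 over group means), Cd59 (0.91 and -0.40) and Slc25a43 (0.89 and 0.87). For Enpep they were Cyp4a8 (0.83 and 0.77), LOC688389 (0.83 and 0.78) and Acsm1 (0.81 and 0.63), and for Agt Slc3a1 (0.76 and 0.91), LOC688389 (0.71 and 0.90) and Ggt1 (0.68 and 0.52). Slc3a1 is also in the list of proximal tubule markers. For Ace and Agtr1b no r exceeded 0.49 (Epha1) and 0.45 (Msmp). The libraries share treatment and set, so these values carry no p.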

How the data were processed

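Messenger RNA was measured by RNA sequencing in 75 libraries. Per the labels' protocols, SMARTer V4 reagents and 15 PCR cycles gave the cDNA, of which 1 ng went into Nextera XT libraries. STAR 2.5.2b, RSEM 1.2.31 and the build Rnor_6.0 are named in the submitters' processing notes. The authors deposited TPM per gene and library in 1 table, and 0 of its value columns were left unmapped. Depth is unknown, so no counting interval is given. The cDNA keeps no strand, so genes that overlap on opposite strands cannot be told apart.

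Each comparison was fitted to all genes in limma 3.58.1 under R 4.3.3, taking log2(TPM + 1) and letting the variance follow the mean level. Two-sided p-values were BH adjusted over the genes tested, and calls were made under 0.05. Genes needed at least 1 TPM in as many libraries as the smaller group. The 72 h comparisons used their own groups. The earlier ones shared a fit of the 6 early CCD groups, segments and their interaction a fit of the 4 groups at 72 h, and times a fit of the 8 CCD groups. Differences on the log2(TPM + 1) scale understate the change of low genes. Permutation tests used Python 3.11.15, numpy 2.4.6, pandas 2.3.3 and scipy 1.17.1, and figures matplotlib 3.10.9. The fit was run on simulated data in which libraries varied independently. That run therefore does not cover sets of libraries that may share an animal.

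The members, the gene lists and the marker lists were chosen with earlier results of these data known. All 6 members were named, the pathway list by counts with values for genes called under lithium, a few genes not reported here apart, and the 3 genes most correlated with each member among those with 1 TPM in at least 27 CCD libraries. The genes that define sets of libraries, the permutation tests and the libraries left out singly at 72 h were chosen after seeing the data. Alternatives changed the offset, filter, scaling, replicate block, unit of replication and libraries.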

Additional observations from a re-analysis of the deposited data

Results flagged for a closer look

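The 6 members were checked for a library far from the others in lithium cTAL, the group with 10 libraries and the one of a size at which this was checked. Of these 6 checks 3 found one. The rate of about 5% that chance gives holds for separate checks of normally distributed values. Here Agt had a mean of 1.16 and a median of 0.355 TPM, and Agtr1b 0.881 and 0.075 TPM, so both were skewed. Agt and Enpep were also flagged in the same library. The count therefore cannot be compared with that rate. Agtr1b was 5.64 TPM in library 4, where the next highest library had 1.64 TPM. Agt was 5.82 TPM in library 9, with 2.63 TPM next, and Enpep was 10.02 TPM in library 9, with 5.26 TPM next. Library 9 also had the highest summed proximal tubule markers of its group, 2374 TPM, against 627 to 1704 TPM in the others.

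The lithium effect at 72 h differed between segments for Agtr1a, by a log2 of -1.24 in CCD minus cTAL (limma adjusted p = 0.00488), and for Atp6ap2, by -0.58 (adjusted p = 5.38e-06). Both were tested with an interaction term over libraries.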

How the results depend on the processing

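Counts of called genes fell when means of sets of libraries replaced libraries: 1754 against 4338 in CCD at 72 h, 712 against 4198 at 36 h, 333 against 3059 at 24 h, 38 against 1411 at 12 h, 0 against 82 in cTAL (359 at an unadjusted limma p under 0.05), 471 against 2000 for the difference between segments, 40 against 1189 for lithium over time and 37 against 1974 for controls over time. There the early groups are single means and borrow their spread from 72 h. On these means Atp6ap2 was not called at 36 h (-0.35) or 24 h (-0.29), nor were the differences between segments for Agtr1a (-1.42) and Atp6ap2 (-0.46). The 24 h call of Atp6ap2 was also lost without the filter (-0.29) and with any library left out (-0.31 to -0.28). The cTAL count was 31 without the filter, 50 with 5 TPM and 52 without lithium library 4, and 1 to 223 with a set left out: 23, 1 and 223 without lithium sets 1, 2 and 3, and 196 and 1 without control sets 3 and 4. The causes were not tested.

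Signs reversed only for differences that were not called: Agtr1a at 12 h without lithium library 1 (0.047, range -0.692 to 0.047), and in cTAL without control set 1 (-0.006) or 2 (-0.0189, range to 0.295). In cTAL Atp6ap2 reversed on means of sets (-0.0617, also by permutation) and without control set 2 (-0.0694, range to 0.11). Enpep reversed there with an offset of 0.1 (-0.00377), on means of sets (-0.0311, also by permutation), without lithium sets 3 (-0.123) and 4 (-0.144) or control set 3 (-0.185, range to 0.221), and without lithium library 9 (-0.128). In CCD at 72 h Agt was 0.025 on means of sets.

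Scaling libraries by median ratios moved the median difference over all genes by -0.14 at 36 h, -0.15 at 24 h and -0.26 between segments in controls, and changed the split of calls to 2135 higher and 2022 lower (from 3078 and 1120), 1560 and 1430 (from 2372 and 687) and 3593 and 3489 (from 5937 and 2216). At 12 h it gave 812 and 703 (from 957 and 454), in cTAL 21 and 55 (from 13 and 69) and for the difference between segments 1101 and 857 (from 1550 and 450). Atp6ap2 was then -0.50 at 36 h and -0.45 at 24 h, and Agtr1a -2.77 at 36 h.

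With the replicate number as a block the cTAL count was 1, and no member call changed. The numbers did not pair the libraries: over 17 pairs in CCD at 72 h the median correlation of deviations was 0.0743, and 5 pairs were over 0.1. No paired analysis was possible for controls over time because blocks were numbered within each time, so that differences between times lie between blocks. Depth is unknown, and Agt, Ace and Agtr1b lay below the filter on low values in all 5 lithium comparisons.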
